A study of Mus musculus with 6 samples.

Results

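The SLC5 sodium-coupled transporters described here are 10 genes of the mouse family that carries sugars, myo-inositol, iodide, vitamins, choline and monocarboxylates into cells: Slc5a1, Slc5a2, Slc5a3, Slc5a4a, Slc5a4b, Slc5a5, Slc5a6, Slc5a7, Slc5a8 and Slc5a9. They were taken by symbol from a table of 21006 genes, and all 10 symbols were present. The family was picked with the difference between DKO and control already known, because it includes Slc5a4b and Slc5a8, which were raised. For that reason the differences of the members are given as descriptions, and where a member is said to be called, the call describes it and supports nothing. RNA came from branchial arch neural crest at E11.5, in 3 DKO (double knockout) and 3 control libraries. The DKO genotype was Ehmt1f/f and Ehmt2f/f, and the control genotype was Ehmt1+/+ and Ehmt2+/+. Both groups also carried Rosa26 TdTomato/+ and Wnt1-cre, so Cre and the red reporter were present in the controls as well, and both groups were sorted on the reporter. Wnt1-cre recombines in cells that expressed Wnt1, mainly neural crest and dorsal neural tube. Replicates are labelled as biological, but whether each came from 1 embryo or from several is not stated, so any spread given here is that between these libraries.

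Most SLC5 proteins use the inward sodium gradient, which the sodium pump maintains, to move a second solute into the cell against its own gradient. The sugar carriers of the family are best known from the brush border of gut and kidney, the iodide carrier from the thyroid, and the choline carrier from cholinergic nerve endings, whereas the inositol and vitamin carriers are found in many cell types. Ehmt1 and Ehmt2 encode GLP and G9a, the paired enzymes that place mono- and dimethyl marks on lysine 9 of histone H3, a modification found on silent chromatin.

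Total counts lay between 23414466 and 44538260 per library. Ehmt2 measured 119 to 140.4 CPM in DKO against 347 to 359.7 CPM in control libraries, and Ehmt1 133 to 168 against 250.03 to 268 CPM, so the libraries matched their labels (CPM, counts scaled to a common library total after TMM adjustment). Reads from exons that the floxed alleles keep are part of these counts. The residual level of both genes was highest in DKO replicate 3, which also lay nearest the controls on the first principal component. Summed markers of crest mesenchyme (10 genes) stood at 1821 to 2289 CPM in DKO against 2103 to 2496 CPM in control libraries, and neuronal markers (10 genes) at 915 to 993 and 971 to 1183 CPM, so RNA of neuronal genes was present beside that of mesenchyme in both groups. The sums overlapped, but the median log2 fold change of DKO over control was -0.17 for the crest and -0.33 for the neuronal markers. It was positive for 3 of the 10 crest and 1 of the 10 neuronal genes.

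Most SLC5 RNA in arch crest came from the myo-inositol carrier gene Slc5a3 and the vitamin carrier gene Slc5a6, and these were not called in either direction. Slc5a4b and Slc5a8 were close to silent in the controls and stood between 0.849 and 2.03 CPM in the DKO libraries. Slc5a7 and Slc5a5 were detected in all 6 libraries with overlapping groups, and Slc5a1, Slc5a2, Slc5a4a and Slc5a9 had at most 6 counts in any library. Slc5a3 and Slc5a6 together made up 83.5% to 88.3% of the summed CPM of the 10 genes in DKO libraries and 92.7% to 93.8% in control libraries. The sum itself was 45.3, 48.6 and 48.7 CPM in the DKO libraries (replicates 1 to 3) and 53.6, 51.8 and 41.9 CPM in the controls (replicates 1 to 3), so it overlapped between the groups.

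**Figure D1:**
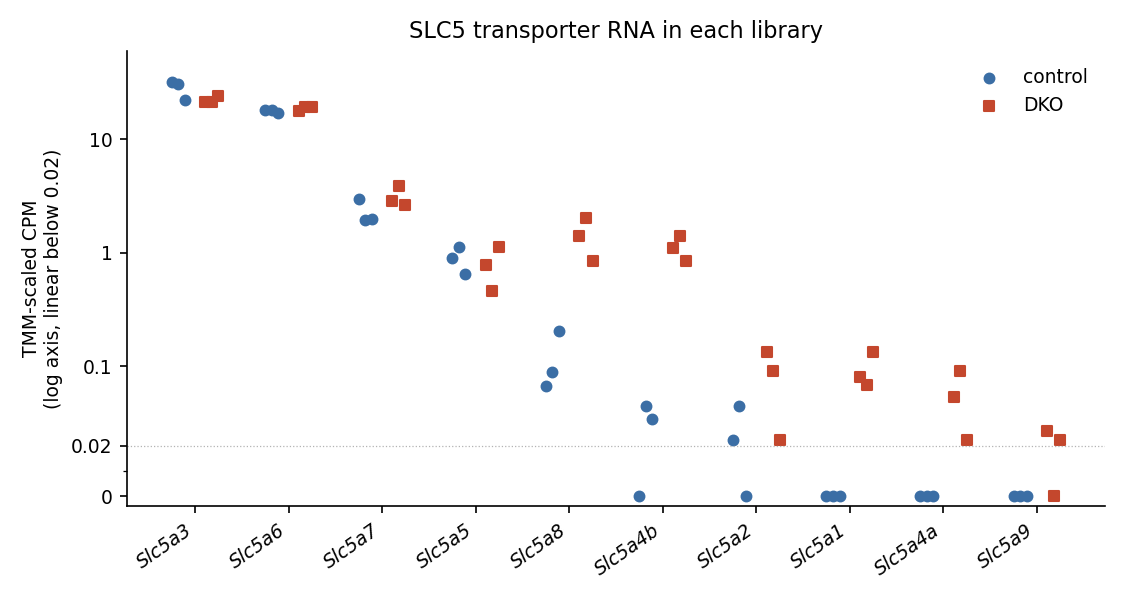
TMM-scaled CPM of the 10 SLC5 genes (y axis, logarithmic above 0.02 and linear below) in each of the 3 control libraries (circles) and 3 DKO libraries (squares), replicates 1 to 3 from left to right, genes ordered by their mean over all libraries. Slc5a4b and Slc5a8 lie at 0.849 CPM or more in every DKO library and at 0.205 CPM or less in every control library, while the 4 genes from Slc5a3 to Slc5a5 overlap between the groups.

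Of the 10 members, 6 passed the filter on low counts (Slc5a3, Slc5a4b, Slc5a5, Slc5a6, Slc5a7 and Slc5a8), and the other 4 are given by their counts alone. Slc5a4b and Slc5a8 passed the filter only through their DKO libraries. A gene was called when the quasi-likelihood test of edgeR, fitted over all 14555 tested genes, gave an adjusted p below 0.05. Of the 6, 2 were called higher (Slc5a4b and Slc5a8) and 0 lower, where 3.01% of all tested genes were called, 2.19% higher and 0.818% lower. The calls of Slc5a4b and Slc5a8 restate how the family was chosen, so nothing is read from their number. Among genes with a control mean under 1 CPM, as both raised members had, 8.63% were called higher, and among the other genes 1.43%. A gene with almost no control counts passed the filter only when its DKO counts were higher, so nothing is read from this difference. The median log2 fold change of the 6 members was 0.26, and that of all tested genes was -0.01. Without Slc5a4b and Slc5a8, whose values chose the family, the median of the other 4 was -0.04. Groups did not overlap for 2 of the 6 members and for 27.2% of all tested genes.

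**Figure D2:**
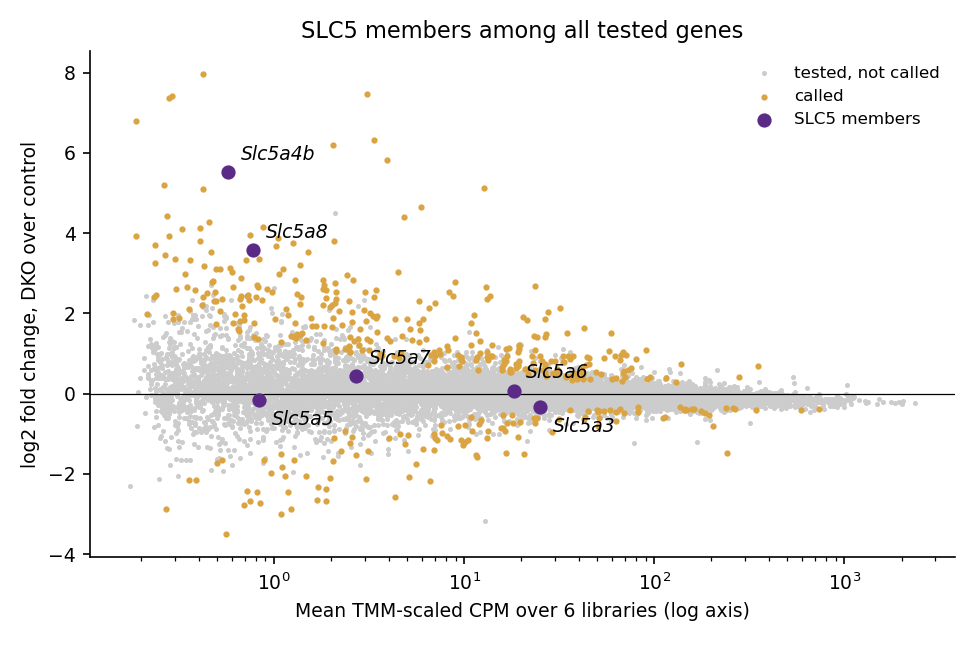
Log2 fold change of DKO over control (y axis) against the mean TMM-scaled CPM over 6 libraries (x axis, logarithmic) for all 14555 tested genes, with called genes in gold and the 6 tested SLC5 members in purple. Slc5a4b at 5.52 and Slc5a8 at 3.58, whose rise chose the family, stand among the largest rises at low mean levels. The other 4 members lie between -0.34 and 0.44.

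Slc5a4b encodes SGLT3b, a relative of the intestinal glucose carrier SGLT1, and lies on chromosome 10 (GRCm38, GENCODE M21 span as for the other members, 76057494 to 76110961, minus strand, 15 exons). It had 41, 62 and 38 counts in DKO replicates 1 to 3, or 1.10, 1.42 and 0.849 CPM. In control replicates 1 to 3 it had 0, 1 and 1 counts, or 0, 0.0449 and 0.0342 CPM. Every DKO library was far above every control library, with DKO replicate 3 the lowest of the DKO libraries. Over the groups these were 141 against 2 counts. The scaled ratio was 54.0, with a 95% counting interval of 14.7 to 450.4, which covers counting error only. The fitted log2 fold change was 5.52 (SE 0.62), the 9th largest of all tested genes. Leaving out 1 library at a time, it ranged from 4.74 (without control replicate 1) to 6.07 (without control replicate 2). In sorted bulk RNA, a larger number of cells with the transcript and more transcript per cell cannot be told apart.

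Slc5a4a, which encodes the closely related SGLT3a, starts 36.4 kb from Slc5a4b on the opposite strand (chromosome 10, 76147451 to 76189265). It had 2, 4 and 1 counts in DKO replicates 1 to 3 and 0 counts in each control library. Its 7 DKO counts were 1.79 times a floor of 3 counts over the control group after scaling. The 95% counting interval of the ratio, which also covers the error of the 7 counts, begins at 1.10. The coding sequences of the pair, at 1968 and 1980 bases, were 80.0% identical, the highest identity among the 45 pairs of members. Of all stretches of 50 bases in the Slc5a4b transcript, only 1 (0.0317%) also occurred in the Slc5a4a transcript, and no other pair of members shared any. The read length and the handling of multiply mapped reads were not stated.

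Slc5a8 encodes SMCT1, a carrier of lactate, pyruvate, short-chain fatty acids and nicotinate. It lies on the same chromosome, 12.7 Mb beyond Slc5a4a (chromosome 10, 88885992 to 88929515, plus strand, 15 exons). It had 52, 89 and 38 counts in DKO replicates 1 to 3, or 1.40, 2.03 and 0.849 CPM, and 3, 2 and 6 counts in control replicates 1 to 3, or 0.0671, 0.0897 and 0.205 CPM. The groups did not overlap, and the DKO libraries ran in the same order as for Slc5a4b. The scaled ratio of 179 to 11 counts was 12.5, with a counting interval of 6.80 to 25.4. The fitted log2 fold change was 3.58 (SE 0.52), the 30th largest of all tested genes. It ranged from 3.20 (without control replicate 1) to 4.19 (without control replicate 3), and the gene was not called without control replicate 1 or without control replicate 2 (log2 fold change 3.48). When genes needed at least 1 CPM in 3 libraries, neither Slc5a4b nor Slc5a8 was tested, since DKO replicate 3 held less than 1 CPM of each.

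The start regions of both raised members and of Slc5a4a, the nearest relative of Slc5a4b, are shown because they differ in CpG content. The 250 bases before the RefSeq start (GRCm38.p6) are printed 5′ to 3′ on the strand of the gene, with each CpG dinucleotide in capitals. They lie at chr10:76111019-76111268 (minus strand) for Slc5a4b, chr10:76147201-76147450 (plus strand) for Slc5a4a and chr10:88885742-88885991 (plus strand) for Slc5a8.
Slc5a4b: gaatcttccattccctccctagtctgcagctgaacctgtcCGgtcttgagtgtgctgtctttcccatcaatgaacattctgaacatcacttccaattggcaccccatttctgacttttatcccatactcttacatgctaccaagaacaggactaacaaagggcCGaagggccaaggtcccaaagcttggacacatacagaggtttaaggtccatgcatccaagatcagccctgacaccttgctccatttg
Slc5a4a: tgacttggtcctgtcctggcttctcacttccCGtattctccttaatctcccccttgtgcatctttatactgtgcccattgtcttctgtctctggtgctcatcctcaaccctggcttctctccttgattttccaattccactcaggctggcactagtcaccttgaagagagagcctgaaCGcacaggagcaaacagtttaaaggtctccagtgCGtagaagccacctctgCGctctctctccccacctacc
Slc5a8: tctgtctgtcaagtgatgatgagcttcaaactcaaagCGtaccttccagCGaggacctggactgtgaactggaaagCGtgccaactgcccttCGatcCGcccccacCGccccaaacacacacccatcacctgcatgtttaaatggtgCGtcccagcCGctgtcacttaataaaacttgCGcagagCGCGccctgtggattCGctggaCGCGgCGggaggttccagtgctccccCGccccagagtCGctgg

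Of the 250 bases shown, 2 CpG fell in Slc5a4b, 4 in Slc5a4a and 17 in Slc5a8. Over the full window of 300 bases (250 before and 50 after the start), CpG stood at 0.12 of the number expected from base composition in Slc5a4b, 0.24 in Slc5a4a and 0.73 in Slc5a8. The median over 20469 such windows was 0.59, and 88.0% of them had a higher value than Slc5a4b and 36.5% a higher value than Slc5a8. The raised pair thus spanned low and above-median CpG density. Low density was also found in Slc5a7 (0.07), which was not called, and high density in Slc5a3 (0.96) and Slc5a5 (0.86). Sequences for Slc5a2 and Slc5a9 were not matched, so 8 of the 10 members had a window.

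Motifs were searched on both strands of the 300 bases, and a match is given only as letters found. The E2F core TCCCGC occurred in the Slc5a8 window (reverse strand, starting 39 bases before the start site), in 1 of the 2 windows of Slc5a6 and in 26.5% of all windows. The CCAAT box was present in Slc5a4b, Slc5a4a, Slc5a5 and the same window of Slc5a6 and in 38.3% of all windows. The TATA box letters TATAAA were found in the windows of Slc5a4a and Slc5a7 and in 12.4% of all windows. They began 188 bases before the start site in Slc5a4a (reverse strand) and 187 bases before it in Slc5a7. The E-box CACGTG was found in the window of Slc5a1 and in 8.02% of all windows. The longest stretch common to the Slc5a4b and Slc5a4a windows was TGATCATTAA, 10 bases that begin 10 bases into Slc5a4b and 7 bases into Slc5a4a when counted from the start site. It was found in 8 of the 20469 windows, these 2 included. The stretch was picked because the 2 windows share it, so nothing is read from that number.

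The remaining sugar carriers were at the limit of detection. Slc5a1, the intestinal glucose and galactose carrier SGLT1, had 3, 3 and 6 counts in DKO replicates 1 to 3 and 0 counts in each control. A count of 0 allows up to 0.0671, 0.135 and 0.103 CPM in control replicates 1 to 3, and the DKO libraries held 0.0808, 0.0685 and 0.134 CPM. Over the groups, its 12 DKO counts were 3.06 times a floor of 3 counts after scaling, and the 95% counting interval of the ratio begins at 2.13. In single libraries the DKO levels lay within what a count of 0 allows in control replicate 2. Slc5a2, the renal glucose carrier SGLT2, had 5, 4 and 1 counts in the DKO libraries (replicates 1 to 3) and 1, 1 and 0 in the controls (replicates 1 to 3), a scaled ratio of 3.83 (counting interval 0.816 to 36.0). Slc5a9, which encodes the mannose and fructose carrier SGLT4, had 1, 0 and 1 counts in DKO replicates 1 to 3 and 0 in each control, so both groups were under the floor. Of 520 untested genes with 7 to 12 counts in all, a range set by Slc5a1 and Slc5a4a after their counts were seen, 11.7% had no count in the controls, as those members did. In Slc5a2, 20.6% of the exonic length overlaps exons of BC017158 on the other strand, and without a stated strand setting reads of the pair cannot be told apart.

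Among markers of gut and kidney epithelium, where sugar carriers of this family are best known, the endocytic receptor gene Lrp2 was the most abundant. It measured 8.44 ± 4.29 CPM in DKO against 9.61 ± 0.899 CPM in control libraries (SD, n = 3 each). Cubn measured 2.09 ± 0.428 against 1.51 ± 0.659 CPM and Lgals4 1.03 ± 0.279 against 1.16 ± 0.492 CPM (SD, n = 3 each). The groups overlapped for these genes, with log2 fold changes of -0.19 for Lrp2, 0.44 for Cubn and -0.16 for Lgals4. The 10 markers summed to 9.81 to 17.3 CPM in DKO against 11.2 to 13.9 CPM in control libraries, Cdh16 and Cdx2 had no count in any library. Cdh17, an intestinal cadherin gene, was at 0.620, 0.845 and 0.156 CPM in DKO and 0.313, 0.0449 and 0.0342 CPM in control libraries, with a log2 fold change of 1.78 (SE 0.82), and the groups overlapped. Vil1, the villin gene, was below the filter and did not overlap, at 0.237 ± 0.0464 against 0.128 ± 0.0343 CPM (SD, n = 3 each). These markers were named after their values were seen. By edgeR, 0 of the 4 tested markers were called (0 at an unadjusted p below 0.05, and 0 by DESeq2). General epithelial markers overlapped too, at 18.3 to 32.2 CPM in DKO against 22.9 to 27.6 CPM in controls, with 0 of 10 called by edgeR (1 at an unadjusted p below 0.05, 0 by DESeq2). The summed level of 6 endothelial markers did not overlap between the groups. It was 27.3 to 30.4 CPM in DKO against 13.5 to 17.8 CPM in control libraries, with 1 of 6 called against 3.01% of all tested genes (3 at an unadjusted p below 0.05, 2 by DESeq2). The called gene was the receptor gene Tie1 at 8.05 ± 0.889 against 0.965 ± 0.146 CPM (SD, n = 3 each). Pecam1 and Emcn did not overlap either, as was so for 27.2% of all tested genes. Kdr, Cdh5 and Tek did overlap, and none of the 6 genes was at 0. For 6 muscle markers the median log2 fold change was 0.68, against 0.62 for the endothelial markers. The muscle sums overlapped, at 12.9 to 26.9 CPM in DKO against 8.25 to 13.9 CPM in control libraries, with 0 of 6 called by edgeR. The part of epithelial, endothelial or muscle cells in the rise of Slc5a4b and Slc5a8 was not tested.

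Slc5a3 encodes SMIT1, the myo-inositol carrier that cells raise under osmotic load, and had the highest CPM of the family (chromosome 16, 92058322 to 92087473). It measured 21.2, 21.4 and 23.8 CPM in the DKO libraries (replicates 1 to 3) and 31.6, 30.4 and 22.2 CPM in the controls (replicates 1 to 3). Control replicates 1 and 2 lay above all DKO libraries, and control replicate 3 fell within the DKO range. The log2 fold change was -0.34 (SE 0.14), and -0.24 to -0.49 with 1 library left out. Slc5a3 shares 159 exonic bases (1.46% of its 10913) with Mrps6 on the same strand, a mitochondrial ribosome gene whose log2 fold change was -0.05 (SE 0.11).

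Slc5a6 encodes SMVT, the carrier of biotin, pantothenate and lipoate, and was the steadiest member. It measured 17.6, 19.2 and 19.2 CPM in the DKO libraries (replicates 1 to 3) and 18.05, 18.2 and 16.9 CPM in the controls (replicates 1 to 3), with overlapping groups. Its log2 fold change was 0.08 (SE 0.10), and its SD was 4.84% of the mean in DKO and 4.004% in control libraries. On chromosome 5 (31036036 to 31048924), 396 of its exonic bases overlap Atraid on the opposite strand, which measured 22.4 ± 3.20 CPM in DKO against 19.2 ± 0.403 CPM in control libraries (SD, n = 3 each).

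Slc5a7 encodes the high-affinity choline carrier of cholinergic neurons (chromosome 17, 54273590 to 54299034). It measured 2.86, 3.88 and 2.66 CPM in the DKO libraries (replicates 1 to 3) and 2.95, 1.93 and 1.98 CPM in the controls (replicates 1 to 3). The groups overlapped because control replicate 1 exceeded DKO replicates 1 and 3, and the log2 fold change was 0.44 (SE 0.26), or 0.26 without DKO replicate 2 and 0.69 without control replicate 1. The vesicular acetylcholine carrier gene Slc18a3, a defining cholinergic gene named after its values were seen, stood at 1.13 ± 0.275 CPM in DKO against 1.23 ± 0.455 CPM in control libraries (SD, n = 3 each).

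Slc5a5 encodes NIS, the iodide carrier of the thyroid (chromosome 8, 70882889 to 70892757). It measured 0.781, 0.457 and 1.12 CPM in the DKO libraries (replicates 1 to 3) and 0.895, 1.12 and 0.649 CPM in the controls (replicates 1 to 3). The ranges overlapped almost fully, with a log2 fold change of -0.17 (SE 0.38) that turned to 0.11 without DKO replicate 2 and to 0.02 without control replicate 2.

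Levels of different members were compared as CPM per kilobase of exon, using exonic lengths of GENCODE M21. In control libraries the order was Slc5a6 (4.44 ± 0.178), Slc5a3 (2.57 ± 0.472), Slc5a7 (0.405 ± 0.102), Slc5a5 (0.303 ± 0.0806), Slc5a8 (0.0226 ± 0.0139), Slc5a4b (0.00823 ± 0.00732) and Slc5a2 (0.00774 ± 0.00774), with Slc5a1, Slc5a4a and Slc5a9 at 0 counts (CPM per kilobase, SD, n = 3). The library ranges of neighbours separated after Slc5a6, after Slc5a3 and after Slc5a5, and overlapped elsewhere in that order. In DKO libraries Slc5a4b took the 4th place at 0.351 ± 0.0887, above Slc5a5 (0.268 ± 0.113) and Slc5a8 (0.268 ± 0.111), and the ranges of these 3 genes overlapped (CPM per kilobase, SD, n = 3). The raised pair thus reached the per-length level of Slc5a5 and stayed below that of Slc5a7 (0.555 ± 0.116), Slc5a3 (2.03 ± 0.134) and Slc5a6 (4.68 ± 0.227). Without the length correction Slc5a3 moved to place 1 and Slc5a6 to place 2 in the controls.

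**Figure D3:**
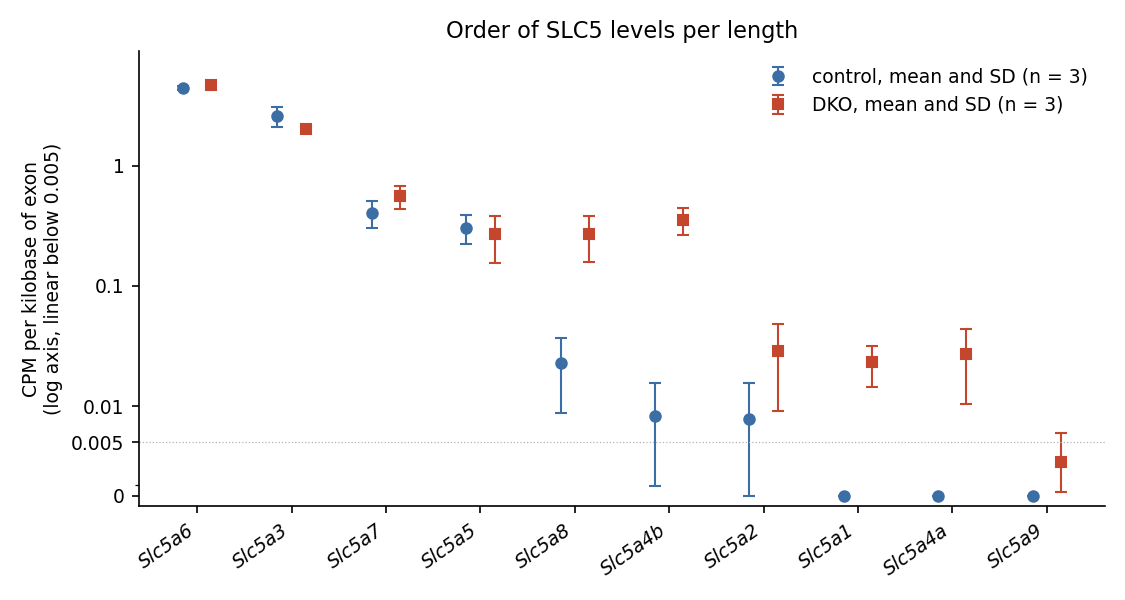
CPM per kilobase of exon (y axis, logarithmic above 0.005 and linear below) for the 10 members, as the mean and SD of 3 control libraries (circles) and 3 DKO libraries (squares), in the order of the control means. Slc5a6 and Slc5a3 lead in both groups, and Slc5a4b and Slc5a8 move from below 0.03 in controls to 0.351 and 0.268 in DKO.

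Coding sequences grouped the sugar carriers together, and Slc5a8 was 63.8% identical to Slc5a4b. After the Slc5a4a and Slc5a4b pair, the highest identities were between Slc5a1 and Slc5a4b (74.0%), Slc5a1 and Slc5a4a (73.3%) and Slc5a1 and Slc5a9 (69.0%). The median over the 45 pairs was 64.2% and the lowest value, between Slc5a5 and Slc5a7, was 61.2%. Values near the lowest, that of Slc5a8 and Slc5a4b among them, are raised by the freedom of a gapped alignment, so no order is read from them.

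Genes beside the raised members were compared by position. Within 100 kb of Slc5a4b the table held 4 genes, of which Zfp280b and Prmt2 were tested, and within 100 kb of Slc5a8 it held Utp20 and Ano4. None of these 4 tested genes was called by edgeR (1 had an unadjusted p below 0.05) or by DESeq2. Over all tested genes edgeR called 3.01%, so nothing is read from 0 calls among 4. The zinc-finger gene Zfp280b, at a gap of -15.6 kb from Slc5a4b (negative towards lower coordinates), had a log2 fold change of -0.27 (SE 0.10; adjusted p of edgeR, 0.173), and was called lower only without DKO replicate 3 (-0.37, edgeR adjusted p = 0.0461). The arginine methyltransferase gene Prmt2 was at 0.17 (SE 0.10, edgeR adjusted p = 0.378). Utp20, a gene of ribosome assembly, was at -0.18 (SE 0.08, edgeR adjusted p = 0.254), and Ano4, a TMEM16 family gene 19.4 kb beyond Slc5a8, at 0.18 (SE 0.32, edgeR adjusted p = 0.805). The other 2 genes near Slc5a4b were below the filter and higher in DKO by count, Slc5a4a with 7 against 0 and a predicted gene with 9 against 1.

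A window of 1 Mb, chosen after seeing the data, held 30 tested genes around Slc5a4b, with 3 called higher and 0 lower. Around Slc5a8 it held 17, with 0 called. Over all tested genes 2.19% were called higher and 0.818% lower. Because the window was chosen afterwards, nothing is read from these counts. The median log2 fold changes were 0.02 around Slc5a4b and -0.06 around Slc5a8. The 3 genes, named after their values were seen, were the glutathione transferase genes Gstt1 (2.13, edgeR adjusted p = 0.0401) and Gstt2 (0.98, edgeR adjusted p = 0.0453), at gaps of -260.03 and -221 kb, and the RNA-binding protein gene Pcbp3 (0.40, edgeR adjusted p = 0.0306) at 651 kb on the other side. Each of these calls held with DKO replicate 3 left out and ended with any of the other 5 libraries left out, where the edgeR adjusted p was 0.0671 to 0.177 for Gstt1, 0.0934 to 0.172 for Gstt2 and 0.0606 to 0.157 for Pcbp3.

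**Figure D4:**
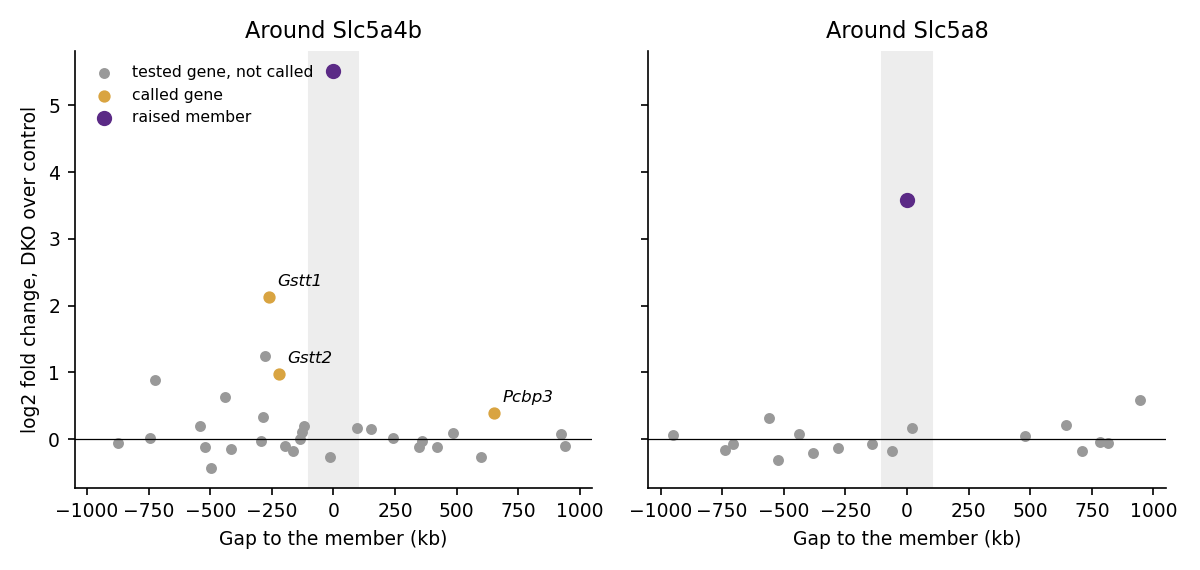
Log2 fold change of DKO over control (y axis) for tested genes within 1 Mb of Slc5a4b (left) and Slc5a8 (right), by the gap in kb to the member (x axis, negative towards lower coordinates), with the 100 kb window shaded. The raised members, at 5.52 and 3.58, were picked for their rise, so their height in these windows was set by that choice. The called neighbours Gstt1, Gstt2 and Pcbp3 lie outside the shaded part.

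Other genes of the pathways that the members serve were read from lists chosen by function. Of 75 tested genes in 7 lists, 2 were called higher and 0 lower by edgeR (2.67%, against 3.01% of all tested genes). The DESeq2 Wald test called 6 of them higher and 1 lower, and over all genes it called 642 higher and 479 lower. Its calls are therefore not to be set against 3.01%. For all tested genes the share at an unadjusted p below 0.05 is not given here. Nothing is therefore read from counts at that threshold among list genes or markers. The median log2 fold change over the 75 genes was 0.02.

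Facilitative sugar carriers of the Slc2a family, which move sugars without sodium, had 10 tested genes of 12 and a median log2 fold change of 0.42, against -0.01 over all tested genes. The log2 fold change was positive in 9 of the 10. The share of positive values over all tested genes is not given here, so nothing is read from that count. None of the 10 was called by edgeR, with 3 at an unadjusted p below 0.05 and 1 called by DESeq2. Slc2a1 and Slc2a4, named next for their abundance, lay below the median of the list. The most abundant were Slc2a1, the general glucose carrier, at 84.3 ± 14.8 CPM in DKO against 95.1 ± 16.2 CPM in control libraries (SD, n = 3 each; log2 fold change -0.17, edgeR adjusted p = 0.584), and the insulin-responsive carrier gene Slc2a4 at 30.2 ± 4.24 and 29.4 ± 2.82 CPM (SD, n = 3 each; 0.04, edgeR adjusted p = 0.895), which turned negative without DKO replicate 2 (-0.06) or control replicate 3 (-0.03). The crest therefore held glucose carrier RNA at far higher CPM than the sodium-coupled sugar carriers in both groups.

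The vitamin list had 20 tested genes, with 1 called higher and 0 lower by edgeR (5%, against 3.01% of all tested genes). In this list 7 genes were at an unadjusted p below 0.05 and 3 were called by DESeq2, and nothing is read from these counts. Slc23a2, a sodium-coupled ascorbate carrier, measured 46.9, 49.7 and 50.7 CPM in the DKO libraries (replicates 1 to 3) and 37.1, 33.96 and 33.5 CPM in the controls (replicates 1 to 3). Every DKO library was above every control library, and the log2 fold change was 0.49 (SE 0.08; adjusted p of edgeR, 0.0165). The call ended without DKO replicate 1 or 2 or control replicate 2 or 3, with log2 fold changes of 0.46 to 0.52 and edgeR adjusted p of 0.0553 to 0.0817.

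The thyroid iodide list had 4 tested genes of 10, with 1 called higher, where 2.19% of all tested genes were. It was Tg, the thyroglobulin gene, at 0.808, 1.07 and 0.961 CPM in the DKO libraries (replicates 1 to 3) and 0.380, 0.179 and 0.239 CPM in the controls (replicates 1 to 3), and the log2 fold change was 1.75 (SE 0.35; adjusted p of edgeR, 0.0372). The groups did not overlap, but the call held in 1 of the 6 fits with a library left out, that without DKO replicate 3, and in the other 5 the edgeR adjusted p was 0.0645 to 0.132. Slc5a5, the iodide carrier, did not rise beside it.

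In the other lists no gene was called by edgeR. Monocarboxylate carriers and their chaperones, the group closest in substrate to Slc5a8, had 13 tested genes and a median of -0.04 (1 at an unadjusted p below 0.05, 0 by DESeq2). The chaperone gene Bsg was at -0.04 (edgeR adjusted p = 0.85; 0.04 with scaling by library size only, and -0.09 to 0.03 with 1 library left out) and the lactate carrier gene Slc16a1 at -0.14 (edgeR adjusted p = 0.552). Myo-inositol and osmolyte genes had 8 tested members and a median of -0.01 (1 at an unadjusted p below 0.05, 0 by DESeq2), with the osmotic regulator gene Nfat5 at -0.43 (edgeR adjusted p = 0.263) and the inositol synthase gene Isyna1 at 0.04 (edgeR adjusted p = 0.828; -0.01 without control replicate 1).

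Choline and acetylcholine genes had 9 tested members and a median of -0.10 (2 at an unadjusted p below 0.05, 1 called by DESeq2), with the phosphatidylcholine synthesis gene Pcyt1a at -0.10 (edgeR adjusted p = 0.558) and the choline carrier gene Slc44a2 at -0.06 (edgeR adjusted p = 0.788), which turned to 0.02 with scaling by library size only. The list of sodium pump subunits and of partners of the family had 11 tested members and a median of -0.12 (2 at an unadjusted p below 0.05, 1 called by DESeq2). Of these, the pump maintains the gradient the family uses. Fxyd6, a pump regulator gene, was at 0.15 (edgeR adjusted p = 0.428). The 3 other SLC5 genes in the table, Slc5a10, Slc5a11 and Slc5a12, were below the filter, with 0 to 11 counts per library and overlapping groups.

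**Figure D5:**
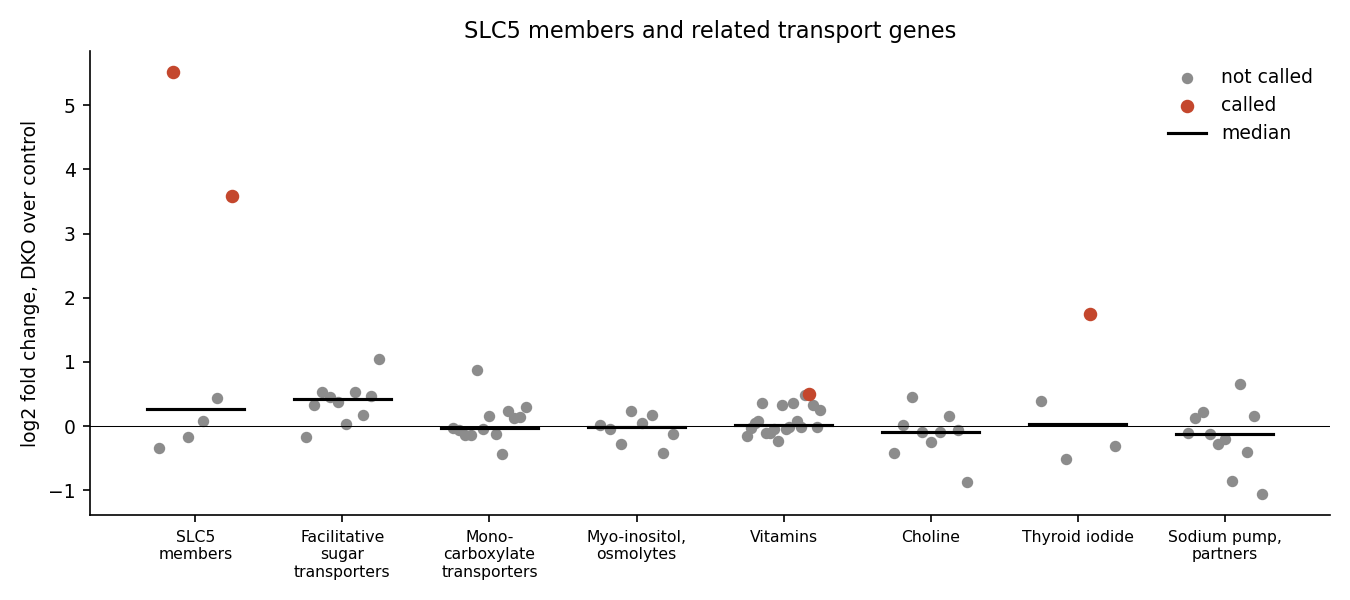
Log2 fold change of DKO over control (y axis) for the 6 tested SLC5 members and for the tested genes of 7 functional lists (x axis), with called genes in red, other genes in grey and the median of each column as a bar. The called list genes are Slc23a2 (0.49) among the vitamin genes and Tg (1.75) among the thyroid genes. Slc5a4b and Slc5a8 were picked for their rise, so their height is not compared with that of list genes.

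The genes whose levels followed a member most closely over the 6 libraries were found from the root mean square difference of log2 CPM, centred per gene, among 13079 named genes with at least 1 CPM in the higher group. For Slc5a4b these were Rhox5 (0.46), Abca16 (0.61) and Otol1 (0.72), and for Slc5a8 they were H2-Eb2 (0.41), Glipr1 (0.43) and Unc5cl (0.47). All 6 had control means of 0.455 CPM or less. Like both members, Rhox5, Abca16, H2-Eb2 and Glipr1 were lowest in replicate 3 among the DKO libraries, whereas Otol1 was highest there (2.46 CPM) and Unc5cl measured 1.94 CPM between its other DKO values of 1.75 and 2.03 CPM. For Slc5a3, the most abundant member, the nearest genes were Lpp (0.05), Prdm12 (0.06) and Gng8 (0.06), in which control replicates 1 and 2 lay above all DKO libraries. In Lpp control replicate 3 did so as well. These distances describe 6 libraries that fall into 2 groups and carry no test.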

How the data were processed

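Polyadenylated RNA of 3 DKO and 3 control libraries was measured, with total counts of 23414466 to 44538260. The table the authors deposited holds raw counts as whole numbers, 1 row a gene symbol. The tools listed in the submitters' processing notes are Trim Galore, Picard and STAR 2.7.10a, and the build is mm10. The counting program, its strand setting and its annotation were not stated.

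The members and lists were chosen with earlier results of these data known. From the deposited counts, edgeR 4.0.16 in R 4.3.3 was run with filterByExpr (minimum count 10, minimum total 15), TMM scaling and the robust 2-sided quasi-likelihood test with group as the only term, adjusted by Benjamini-Hochberg over 14555 genes at 0.05. A standard error is the log2 fold change divided by the root of F. On counts simulated for DKO against control over 14555 genes, 82 of 100 genes changed 2-fold and 100 of 100 changed 4-fold were recovered, and 4.71% of 191 calls were unchanged genes. The genes changed there had a mean of at least 1 CPM, above that of Slc5a4b and Slc5a8. Libraries of a group differed beyond sampling noise (chi-square per degree of freedom 12.6 to 53.7), so none was counted as a repeat. Intervals are exact binomial at 95% and the floor for a count of 0 is 3 counts; both cover counting error only.

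Named genes were Ehmt1, Ehmt2, the 10 members, up to 4 called genes of each pathway list by adjusted p (otherwise its 2 most abundant), tested genes within 100 kb of Slc5a4b or Slc5a8, and the 3 nearest genes by pattern. A gene that this rule names is not reported here. Gene spans, exonic lengths and coding sequences came from GENCODE M21, and promoter windows and gaps between genes from RefSeq on GRCm38.p6; all 10 members matched both annotations. Protein sequences were not used here; the planned comparison of proteins was replaced by nucleotide alignment of coding sequences (Biopython 1.88; match 1, mismatch -1, gap opening -3, extension -0.5). Alternatives were a replicate block, RLE, library size only, DESeq2 1.42.0, 2 other filters and each library left out.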

Additional observations from a re-analysis of the deposited data

How the results depend on the processing

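The family was chosen for the rise of Slc5a4b and Slc5a8, so their calls support nothing. Members called numbered 2 under the other scalings, without a filter, by DESeq2 and with the replicate block, and 1 to 2 with 1 library left out. Slc5a4b and Slc5a8 were untested, leaving 0 calls among members, when 1 CPM was required in 3 libraries. Over all genes, DESeq2 called 642 higher and 479 lower, against 319 and 119 by edgeR, and edgeR with library size only called 416 higher and 80 lower. With 1 library left out the counts were 110 to 597 higher and 21 to 509 lower, both highest without DKO replicate 3, and the other 5 gave 110 to 187 and 21 to 59. The labels do not say whether replicate numbers pair the samples. Deviations of same-numbered libraries correlated at 0.05, -0.03 and 0.36 across genes, and those of other pairs at -0.39 to 0.45. With 3 libraries per group these values cannot decide the pairing, and the replicate block gave 423 higher and 196 lower. Pathway genes called were 6 higher and 1 lower by DESeq2, 1 higher with the 1 CPM filter and 0 to 3 higher with 1 library left out. Near the raised members, 0 to 1 genes were called lower with 1 library left out, and 3 higher in the 1 Mb window. Gstt2 also lost its call with the 1 CPM filter. Without length correction Slc5a3 took place 1 and Slc5a6 place 2. The log2 fold change turned to 0.0441 for Bsg and 0.0226 for Slc44a2 with library size only. With 1 library left out it was -0.52 to 0.11 for Slc5a5, -0.0139 to 0.54 for Ano4, -0.0645 to 0.14 for Slc2a4, -0.0877 to 0.0307 for Bsg, -0.00716 to 0.105 for Isyna1 and -0.133 to 0.0133 for Slc44a2. Except where a filter left genes untested, the cause was not tested. Control counts of 0 to 6 per library limit the size of the rise of Slc5a4b and Slc5a8.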

Other observations

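Slc5a1, Slc5a2, Slc5a4a and Slc5a9, the members below the filter on low counts, held 31 counts in the DKO and 2 counts in the control libraries when summed. The scaled ratio was 11.9, with a 95% counting interval of 3.02 to 102.4 that covers counting error only. All 6451 genes below the filter held 29625 and 15898 counts, a scaled ratio of 1.43. Slc5a10, Slc5a11 and Slc5a12, also below the filter, are not part of the sum of 31 and 2 counts. Their summed CPM overlapped between the groups, at 0.162 to 0.268 in DKO and 0.0897 to 0.308 in control libraries. The sum over Slc5a1, Slc5a2, Slc5a4a and Slc5a9 was formed after the counts of its members were seen, and it carries no test.

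DKO libraries had between 16657 and 16916 genes with a count, and control libraries between 15956 and 16480. Total counts of the groups overlapped, and the part of depth in the counts of these rare transcripts was not tested.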
